A study of Mus musculus with 8 samples.

Results

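The nuclear-encoded subunits of the mitochondrial respiratory chain and ATP synthase were examined in dorsal skin of mice treated on the skin with minoxidil, tieghemelin or maslinic acid. The members were all probe sets with a single gene symbol beginning Ndufa, Ndufb, Ndufc, Ndufs or Ndufv and a number, Sdha to Sdhd, symbols beginning Uqcr, Cyc1, Cox4 to Cox8 without the muscle isoforms Cox6a2 and Cox8b, and symbols beginning Atp5. This gave 81 probe sets for 81 genes, out of 22206 probe sets tested, of which 19572 carried 1 symbol. By complex there were 35 genes for complex I, 4 for complex II, 9 for complex III, 16 for complex IV and 17 for complex V. The complex was assigned from the start of the symbol alone, so that Ndufa4 is counted in complex I.

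The respiratory chain sits in the inner mitochondrial membrane and passes electrons from NADH and succinate to oxygen, pumping protons as it does so, and ATP synthase uses the proton gradient to make ATP. A small set of catalytic subunits is encoded in mitochondrial DNA and all other subunits, the ones described here, are encoded in the nucleus and imported. Skin uses both glycolysis and respiration, and mouse dorsal skin carries a thin layer of striated muscle beneath it.

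RNA from dorsal skin was measured on 8 Clariom S Mouse arrays, which give 1 signal per gene, in 4 groups of 2. All mice were male C3H, an inbred strain, were 7 weeks old at the start, were acclimatised for 7 days and were depilated, and groups of 8 mice were treated daily for 20 days. Controls received Milli-Q water, and their titles name them as controls for tieghemelin and maslinic acid. The treatments were minoxidil, a vasodilator used against hair loss, the compound tieghemelin, and a triterpene acid of olives, maslinic acid. Each was applied at 1%, except that minoxidil replicate 2 was labelled 1% in one field and 2% in another. The labels do not tie an array to a single mouse or a pool, so p-values measure no more than how far the arrays of a group differ, and that spread may be technical. A 2-sided permutation test of 2 arrays against 2 cannot go below p = 0.33, so differences were tested with limma, a linear model that shares the estimate of spread across all probe sets. In whole skin, fewer cells of a type and less RNA per cell cannot be told apart.

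Control replicate 1 stood apart from the other arrays. Over all tested probe sets it correlated with the other 7 arrays at r = 0.518 to 0.538, whereas those 7 correlated with one another at 0.901 to 0.966. The median of 23 antigenomic probe sets, which match no mouse gene and so mark the background, was 7.61 to 7.75 in the controls, 7.33 to 7.51 with minoxidil and 6.96 to 7.08 with tieghemelin and maslinic acid on the log2 scale. Keratinocyte genes were present, among them Krt5 at 9.27 to 13.72 and Krt14 at 7.26 to 10.68, the latter below the background median on control replicate 1 alone. The terminal differentiation gene Lor was below the background median on every array. The comparisons with the controls were therefore also fitted without control replicate 1.

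Of the 81 subunit genes, 35 lay above the background median on all 8 arrays, 39 on 1 to 7 arrays and 7 on no array. The 7 were Ndufb10, Ndufs7, Ndufs8, Ndufv3, Cyc1, Uqcrc1 and Atp5o, which include core subunits of complexes I and III, and for these no fold is given. The number above background on both arrays of a group was 44 for the controls, 56 for minoxidil, 63 for tieghemelin and 64 for maslinic acid, while the background itself was highest in the controls. The member medians on the log2 scale were 8.00 and 8.81 in the controls, 8.41 and 8.23 with minoxidil, 7.99 and 8.19 under tieghemelin, with maslinic acid at 8.21 and 8.05. The medians over all tested probe sets spanned only 7.96 to 8.06. Control replicate 2 was thus the array with the highest member median and control replicate 1 among the lowest. Of the members, 35 had their highest value on control replicate 2, and 36 their lowest on control replicate 1, although 18 had their highest there. The same counts were not made over all probe sets, so they are not shown to be particular to the members.

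**Figure D1:**
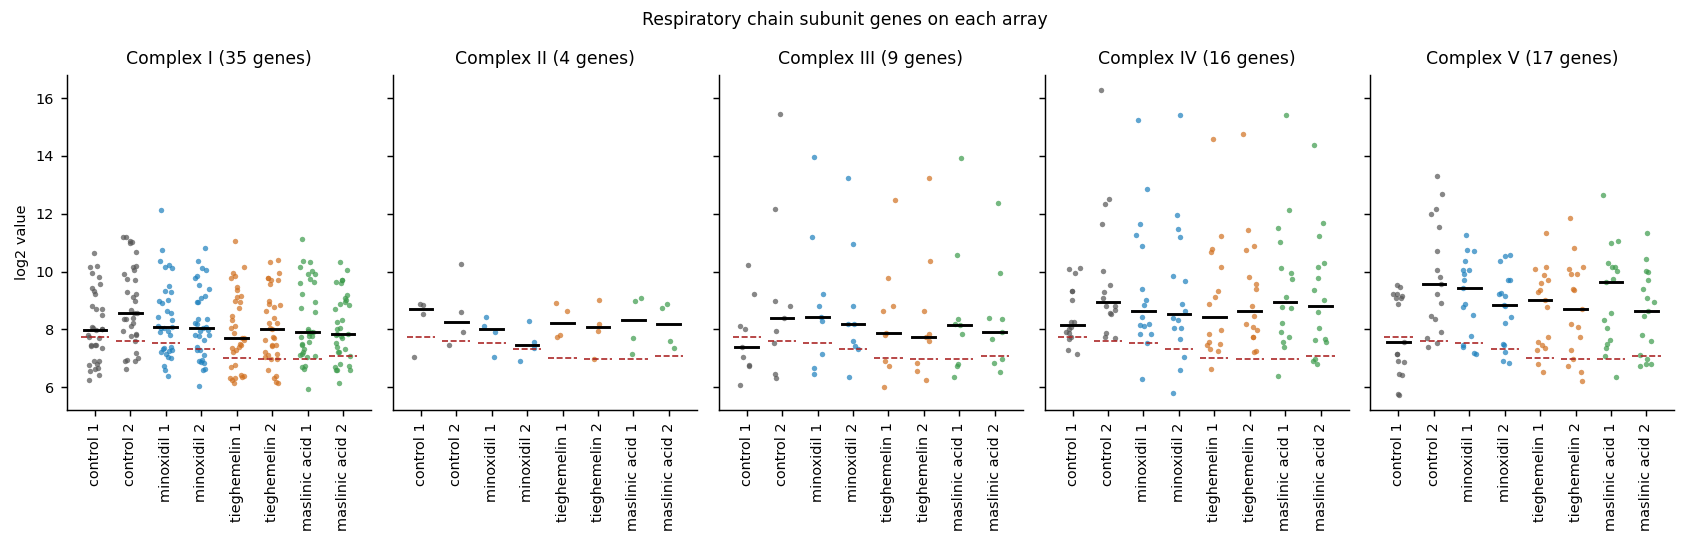
Log2 signal of each of the 81 subunit genes by complex and array; points are genes, black bars medians, and red dashed lines the antigenomic background median of the array. The median of complex V ran from 7.55 on control replicate 1 to 9.63 on maslinic acid replicate 1, and many complex I genes lie near the background.

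By complex, the medians for complex I were 7.99 and 8.55 in the controls, 8.07 and 8.03 with minoxidil, 7.71 and 8.00 under tieghemelin, while maslinic acid gave 7.90 and 7.85. For complex III they were 7.38 and 8.39 in the controls, 8.42 and 8.19 with minoxidil, 7.88 and 7.73 under tieghemelin, with maslinic acid at 8.16 and 7.90. For complex IV they were 8.16 and 8.95 in the controls, 8.62 and 8.51 with minoxidil, 8.43 and 8.63 under tieghemelin, while maslinic acid gave 8.94 and 8.81. In complexes I, III and IV, control replicate 2 lay above control replicate 1, and in complex II it lay below, at 8.25 against 8.69.

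Skeletal muscle genes differed between the same arrays. The median of 20 muscle genes was 10.94 and 12.69 in the controls, 10.19 and 10.24 with minoxidil, 8.69 and 8.54 under tieghemelin, with maslinic acid at 10.38 and 8.75. The fast myosin gene Myh4 read 17.03 and 16.77 in the controls, 11.97 and 12.25 with minoxidil, 9.26 and 9.15 under tieghemelin, while maslinic acid gave 14.14 and 9.05. Both control arrays were above every treated array for Myh4, and maslinic acid replicate 1 was above the other treated arrays. The part of muscle RNA in the subunit differences was not tested.

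Complex I takes electrons from NADH, and its flavoprotein subunit Ndufv1, which binds NADH, was below both controls with every treatment. Ndufv1 read 10.19 and 10.14 in the controls, 8.31 and 7.97 with minoxidil, 8.73 and 8.97 under tieghemelin, with maslinic acid at 8.75 and 9.09. The controls were alike and lay above all 6 treated arrays, and minoxidil was lowest. The difference from control was -2.02 on the log2 scale with minoxidil (SE 0.35, limma adjusted p = 0.44), which is 4.07-fold lower, -1.31 with tieghemelin and -1.25 with maslinic acid. The 3 differences share the control arrays. Without control replicate 1 they were -2.00, -1.29 and -1.22.

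Ndufs5, an accessory subunit on the intermembrane-space side, had a similar order. It read 10.14 and 10.06 in the controls, 8.03 and 8.08 with minoxidil, 8.33 and 8.76 under tieghemelin, while maslinic acid gave 9.64 and 8.83. All treated arrays were below both controls. The difference from control was -2.05 with minoxidil (SE 0.40, limma adjusted p = 0.44), 4.14-fold lower, and -1.56 with tieghemelin. These were -2.01 and -1.52 without control replicate 1, and met the study's thresholds of 1.7-fold and an unadjusted p of 0.05 in both fits. With maslinic acid the difference was -0.87 and did not meet them.

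Ndufa9, an accessory subunit at the junction of the matrix and membrane arms, was lowest with the other compounds rather than with minoxidil. It read 8.80 and 8.55 in the controls, 7.82 and 7.94 with minoxidil, 7.23 and 7.11 under tieghemelin, with maslinic acid at 7.14 and 7.51. The controls were highest and minoxidil next, and the arrays of tieghemelin and maslinic acid overlapped. The difference from control met the study's thresholds with tieghemelin (-1.50) and maslinic acid (-1.35). With minoxidil it was -0.79, short of the thresholds. The 3 differences were -1.37, -1.22 and -0.67 without control replicate 1, with the same calls.

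Of the other members of complex I, Ndufa13, Ndufa1 and Ndufb2 also lay below the controls on every array of at least 1 treatment. Ndufa13, an inner-membrane subunit also known as GRIM-19, read 9.96 and 9.92 in the controls and 8.63 and 8.94 with minoxidil, a difference of -1.15 that met the thresholds, as did that without control replicate 1 (-1.13). Ndufa1, a single-pass membrane subunit, read 9.23 and 8.55 in the controls, 7.90 and 6.89 with minoxidil, 6.33 and 7.44 under tieghemelin, while maslinic acid gave 7.75 and 7.23. All 3 treatments met the thresholds for Ndufa1, with -1.50, -2.00 and -1.40, and without control replicate 1 only tieghemelin did, at -1.67. Ndufb2, a membrane-arm subunit, read 10.65 on control replicate 1 and 9.12 on control replicate 2, and 7.49 to 8.98 in the treated arrays. Its differences of -1.38 with minoxidil, -2.02 with tieghemelin and -2.07 with maslinic acid all met the thresholds. Those with tieghemelin (-1.26) and maslinic acid (-1.31) still did without control replicate 1, and that with minoxidil (-0.61) did not.

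Other complex I genes depended on the control array. Ndufs1, the largest iron-sulfur subunit, read 6.67 and 9.30 in the controls, 9.34 and 8.36 with minoxidil, 7.87 and 7.75 under tieghemelin, with maslinic acid at 7.76 and 8.01. Control replicate 1 was the lowest array and lay below background, and minoxidil lay above both other treatments. Ndufs3, a core subunit of the peripheral arm, read 7.46 and 11.18 in the controls and 9.57 to 10.37 in the treated arrays, so that the groups lay between its control arrays. Ndufc2, a membrane-arm subunit, read 7.34 and 10.99 in the controls, 10.75 and 10.37 with minoxidil, 9.48 and 9.76 under tieghemelin, while maslinic acid gave 9.92 and 8.89.

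Ndufv2, the iron-sulfur partner of Ndufv1, read 7.70 and 8.98 in the controls, 7.03 and 7.64 with minoxidil, 6.33 and 6.96 under tieghemelin, with maslinic acid at 7.87 and 7.38. Neither tieghemelin array was above its background median. Taking each tieghemelin array at the background median, tieghemelin was 2.54-fold lower than control, and met the thresholds with and without control replicate 1. Control replicate 1 (7.70) also lay below its own background median (7.75) and was taken as it read. The fold is therefore not a firm lower limit. Ndufs4, an accessory subunit of the matrix arm, read 7.41 and 8.40 in the controls, 9.01 and 7.79 with minoxidil, 6.40 and 7.13 under tieghemelin, while maslinic acid gave 7.90 and 6.81.

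Windows at the starts of 4 genes described here are shown, from RefSeq's GRCm38.p6, 1 without and 3 with matches to motifs of factors known to act on this gene family. Each covers 300 bases, 250 before and 50 after the annotated start, written 5′ to 3′ on the gene's strand. Capitals mark matches on either strand to NRF1 (CGCATGCG), GABPA (CCGGAAG or CTTCCGG) and SP1 (GGGCGG or CCGCCC) motifs; the letters of a YY1 motif (AAGATGGC or GCCATCTT) were searched too. Ndufv1 (chr19:4012706-4013005, minus strand) had no match, Sdhb is at chr4:140961021-140961320 (plus), Atp5b at chr10:128083057-128083356 (plus) and Atp5k at chr5:108434350-108434649 (minus).
Ndufv1: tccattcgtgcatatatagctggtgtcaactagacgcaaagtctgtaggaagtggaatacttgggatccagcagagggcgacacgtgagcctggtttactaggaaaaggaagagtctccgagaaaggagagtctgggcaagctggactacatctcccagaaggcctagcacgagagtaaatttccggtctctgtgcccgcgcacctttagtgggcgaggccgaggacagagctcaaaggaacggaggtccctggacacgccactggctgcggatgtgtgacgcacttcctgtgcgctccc
Sdhb: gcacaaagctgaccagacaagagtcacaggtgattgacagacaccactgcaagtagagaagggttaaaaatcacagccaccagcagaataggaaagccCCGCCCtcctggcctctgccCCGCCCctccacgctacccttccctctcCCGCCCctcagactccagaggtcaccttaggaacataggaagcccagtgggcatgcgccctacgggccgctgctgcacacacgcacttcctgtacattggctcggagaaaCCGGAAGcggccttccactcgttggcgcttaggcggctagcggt
Atp5b: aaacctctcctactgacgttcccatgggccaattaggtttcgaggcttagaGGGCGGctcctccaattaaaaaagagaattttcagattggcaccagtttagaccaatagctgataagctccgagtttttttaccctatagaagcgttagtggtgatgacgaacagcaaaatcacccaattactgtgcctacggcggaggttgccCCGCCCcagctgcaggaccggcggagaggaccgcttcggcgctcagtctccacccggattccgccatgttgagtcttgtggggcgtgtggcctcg
Atp5k: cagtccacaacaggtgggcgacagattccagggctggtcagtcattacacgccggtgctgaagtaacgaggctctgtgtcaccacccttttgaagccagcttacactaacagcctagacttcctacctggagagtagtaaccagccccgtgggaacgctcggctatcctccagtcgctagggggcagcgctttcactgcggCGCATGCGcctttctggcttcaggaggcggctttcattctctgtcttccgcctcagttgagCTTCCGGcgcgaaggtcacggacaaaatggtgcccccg

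NRF1, GABPA and YY1 are transcription factors long known to act on genes of this family. A window was found for 67 of the 81 members. The NRF1 letters occurred in windows of 9 members (13.4%) against 2.07% of all 27025 genes with a window, GABPA in 17 (25.4%) against 9.93%, YY1 in 10 (14.9%) against 3.19% and SP1 in 28 (41.8%) against 38.2%. Matches to YY1 were found for 7 of the 32 complex I members with a window and 3 of the 15 of complex V. Complexes II, III and IV had 0 of 3, 0 of 5 and 0 of 12. A match is a run of letters and does not show binding in skin.

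Complex II, succinate dehydrogenase, links the citric acid cycle to the chain. Its iron-sulfur subunit Sdhb read 7.03 and 10.27 in the controls, 7.90 and 7.56 with minoxidil, 8.62 and 8.19 under tieghemelin, with maslinic acid at 8.98 and 8.74. The treated arrays lay between the controls, and minoxidil lay below the other compounds without overlap. Without control replicate 1 the differences from control were -2.54 with minoxidil (limma adjusted p = 0.075), -1.87 with tieghemelin and -1.41 with maslinic acid. The difference of minoxidil from maslinic acid was -1.13, which did not meet the study's thresholds with all 8 arrays and met them without either control array (SE 0.31 and limma adjusted p = 0.201 without control replicate 1).

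The flavoprotein Sdha read 8.86 and 7.44 in the controls, 7.03 and 6.91 with minoxidil, 7.79 and 6.98 under tieghemelin, while maslinic acid gave 7.16 and 7.34. It did not meet the thresholds. Of the membrane anchors, Sdhc read 8.54 and 8.59 in the controls, 8.43 and 8.29 with minoxidil, 8.90 and 9.01 under tieghemelin, with maslinic acid at 9.08 and 8.89. Minoxidil was lowest and the other compounds highest for Sdhc, without overlap between the groups except tieghemelin and maslinic acid. Sdhd read 7.36 to 8.84 over the 8 arrays, and its minoxidil arrays enclosed the other treated arrays. All 4 genes were lower with minoxidil than with tieghemelin, with a median of -0.51, and none of the 4 met the study's thresholds, either with all 8 arrays or without control replicate 1.

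Complex III passes electrons from ubiquinol to cytochrome c. Its hinge protein Uqcrh read 8.11 and 12.17 in the controls, 11.20 and 10.96 with minoxidil, 9.77 and 10.38 under tieghemelin, while maslinic acid gave 10.58 and 9.95. The treated groups lay between the controls, and minoxidil lay above both others. Uqcrb, the ubiquinone-binding protein, spanned 9.23 on control replicate 1 to 15.46 on control replicate 2, with treated arrays from 12.38 to 13.95. The Rieske iron-sulfur protein Uqcrfs1 read 6.09 and 8.99 in the controls and 7.85 to 8.79 in the treated arrays.

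Uqcrc2, a core protein, was 10.22 and 8.39 in the controls and 7.81 and 7.58 with tieghemelin, a difference of -1.61 that met the thresholds (3.04-fold) and was -0.69 and unmet without control replicate 1. Uqcr11, a small membrane subunit, read 8.00 and 7.51 in the controls, and no tieghemelin or maslinic acid array exceeded its own background median. With those arrays taken at the background median it was 1.69-fold lower with tieghemelin and 1.66-fold lower with maslinic acid. These folds are not firm lower limits, as control replicate 2 (7.51) also lay below its own background median (7.61) and was taken as it read. Neither difference met the thresholds without control replicate 1. Cyc1, cytochrome c1, and Uqcrc1 stayed below the background median everywhere. Complex III had 7 of 9 members higher with minoxidil than with tieghemelin (median 0.44) and 8 of 9 higher than with maslinic acid (median 0.40), but 5 of 9 and 4 of 9 after all arrays were shifted to a common antigenomic background. By construction that shift lowers every probe set alike, and took the medians of all probe sets to -0.40 and -0.37.

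Complex IV, cytochrome c oxidase, reduces oxygen. Cox6c, a small membrane-spanning subunit, read 9.96 and 12.51 in the controls, 12.85 and 11.95 with minoxidil, 10.77 and 10.74 under tieghemelin, with maslinic acid at 11.03 and 10.28. Minoxidil lay above both other compounds. It differed from tieghemelin by 1.64 (3.12-fold) and from maslinic acid by 1.74 (3.35-fold), and these did not meet the study's thresholds with all 8 arrays but met them without either control array (SE 0.38 for each, limma adjusted p = 0.21 and 0.17 without control replicate 1).

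Several complex IV genes come in tissue isoforms, and these did not share an order. Cox7a1, the heart and skeletal muscle isoform of Cox7a, read 8.25 and 8.79 in the controls, 7.83 and 8.39 with minoxidil, 9.13 and 8.80 under tieghemelin, while maslinic acid gave 8.76 and 9.35. Minoxidil lay below the other compounds, by -0.86 and -0.95. The 20 skeletal muscle genes had a median difference of 1.24 for minoxidil against tieghemelin (18 higher, 2 lower). Against maslinic acid it was 0.31 (12 higher, 8 lower). The part of muscle RNA in the Cox7a1 values was not tested. Cox7a2, the widely expressed isoform, read 10.12 and 7.86 in the controls, 8.10 and 6.60 with minoxidil, 7.99 and 8.46 under tieghemelin, with maslinic acid at 9.12 and 8.59. Cox7a2l, which helps join complexes III and IV, read 8.07 and 8.67 in the controls and 8.16 and 7.67 with minoxidil, with 7.44 and 7.26 under tieghemelin, while maslinic acid gave 7.56 and 6.80. Its differences from control of -1.02 and -1.19 with the last 2 compounds met the thresholds, and were -1.32 and -1.49, also past them, without control replicate 1.

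Cox6b2, the testis isoform, read 9.01 and 7.75 in the controls, 6.29 and 5.81 with minoxidil, 6.64 and 7.23 under tieghemelin, with maslinic acid at 6.38 and 6.97. It was above background on both control arrays and on no minoxidil or maslinic acid array, at least 1.94-fold and 2.56-fold lower, and met the thresholds with these compounds with and without control replicate 1. The widely expressed Cox6b1 read 7.90 and 9.28 in the controls, 8.41 and 8.04 with minoxidil, 7.25 and 7.74 under tieghemelin, while maslinic acid gave 7.73 and 6.90. With all 8 arrays it met the thresholds against control with maslinic acid (-1.28) and not with tieghemelin (-1.09) or minoxidil (-0.37). It met them with all 3, at -1.97, -1.79 and -1.06, once control replicate 1 was left out. Cox8c, another testis isoform, ran the other way at 7.65 and 9.09 in the controls, 9.39 and 9.66 with minoxidil, 10.17 and 9.81 under tieghemelin, with maslinic acid at 9.74 and 10.16. Its differences from control with tieghemelin and maslinic acid were 1.62 and 1.58, both past the thresholds, and 0.90 and 0.86 without control replicate 1, still past them.

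Cox4i1, the main Cox4 isoform, read 7.28 and 8.81 in the controls and 7.49 to 8.75 in the treated arrays, and Cox4i2, the isoform induced by low oxygen, read 9.33 and 7.69 in the controls and 7.03 to 7.75 in the treated arrays. Neither met the thresholds in any comparison, with all 8 arrays or without control replicate 1. Cox7b2 met them higher with maslinic acid than control (1.61), but not without control replicate 1 (0.42). Cox5b, Cox8a, Cox5a and Cox7c, which encode small subunits, did not meet the thresholds with all 8 arrays. Cox7c read 9.33 and 16.29 in the controls and 14.37 to 15.42 in the treated arrays, and Cox5b read 8.26 and 12.32 in the controls and 10.90 to 11.68 in the treated arrays. When control replicate 1 was left out, Cox7c met the thresholds lower with tieghemelin (-1.63) and maslinic acid (-1.40), and Cox5b lower with minoxidil (-1.10) and tieghemelin (-1.27).

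**Figure D2:**
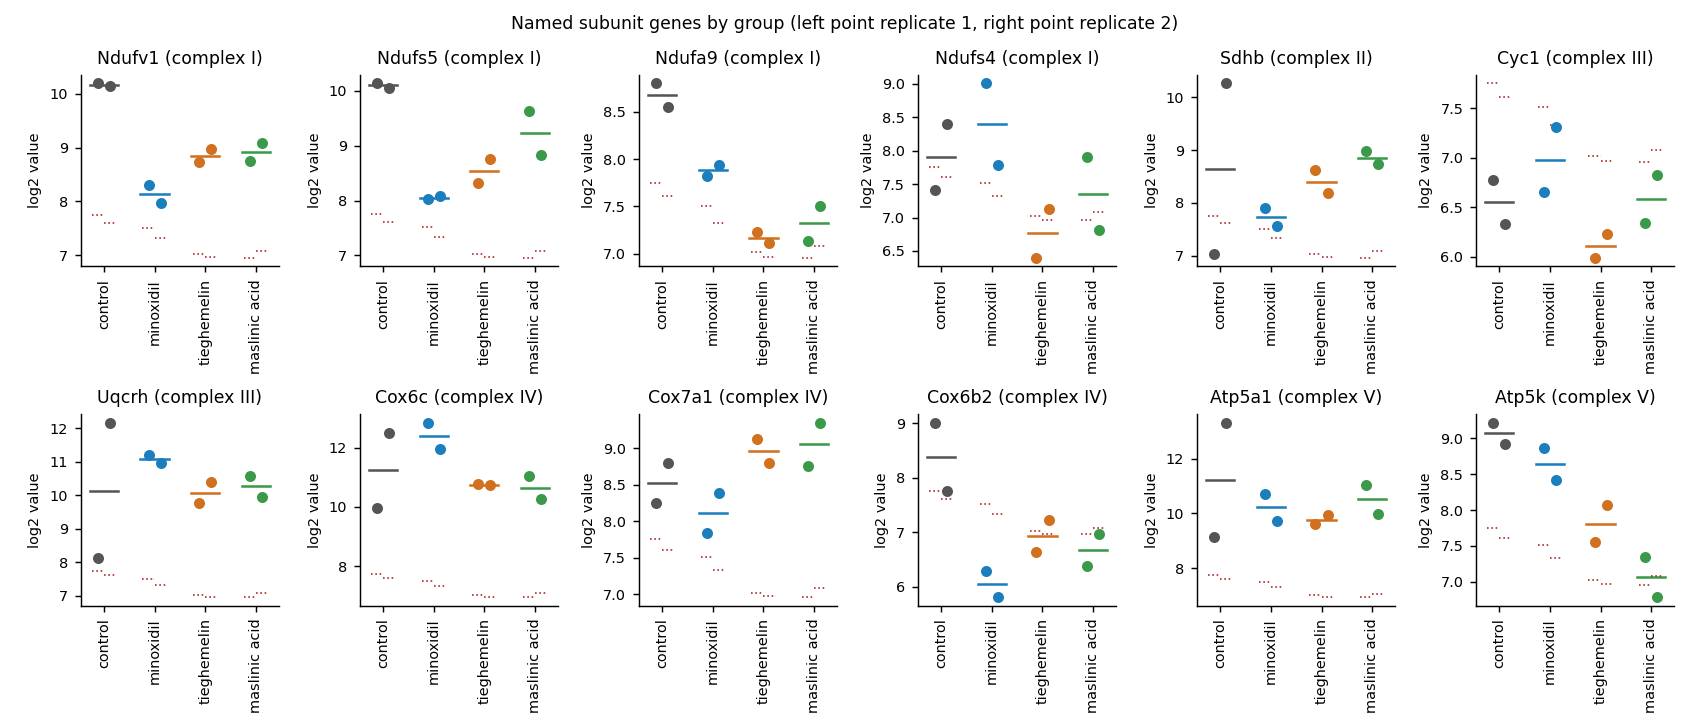
Log2 signal of 12 subunit genes on each of the 8 arrays, with replicate 1 as the left point and replicate 2 as the right point of each group, bars at group means and red dotted lines at the antigenomic background median. Ndufv1 and Ndufs5 are alike on both control arrays and lower on the treated arrays, whereas Sdhb, Uqcrh and Atp5a1 differ by over 3 log2 units between the control arrays.

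Complex V, the ATP synthase, makes ATP. Its alpha subunit Atp5a1 read 9.15 and 13.31 in the controls, 10.72 and 9.72 with minoxidil, 9.60 and 9.93 under tieghemelin, while maslinic acid gave 11.05 and 9.97. All treated arrays lay between the controls. Without control replicate 1 the difference with tieghemelin was -3.54 (SE 0.53, limma adjusted p = 0.0274), the only member at adjusted p under 0.05 in that fit, in which 0.356% of all probe sets passed. With minoxidil it was -3.08 and with maslinic acid -2.80.

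The beta subunit Atp5b, which holds the catalytic sites, read 9.07 and 11.98 in the controls, 10.05 and 9.17 with minoxidil, 9.30 and 9.40 under tieghemelin, with maslinic acid at 10.17 and 9.09, all between the controls. The gamma subunit Atp5c1, the rotor stalk, read 9.10 and 12.17 in the controls, 10.38 and 9.22 with minoxidil, 10.16 and 10.82 under tieghemelin, while maslinic acid gave 11.00 and 10.43. Atp5h, the d subunit of the stator, read 8.87 and 12.68 in the controls and 10.56 to 12.66 in the treated arrays. For these subunits the comparison with control rested on which control array was used.

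Atp5k, the small e subunit involved in dimers of the enzyme, separated all 4 groups. It read 9.22 and 8.92 in the controls, 8.87 and 8.42 with minoxidil, 7.55 and 8.07 under tieghemelin, with maslinic acid at 7.35 and 6.79. The groups did not overlap, in the order control, minoxidil, tieghemelin and maslinic acid. Against control the difference was -0.42 with minoxidil, -1.26 with tieghemelin and -2.00 with maslinic acid (4.00-fold lower), the last 2 past the study's thresholds. They were -0.27, -1.11 and -1.85 without control replicate 1, with the same calls. Minoxidil was 1.58 above maslinic acid (SE 0.40, 2.98-fold, limma adjusted p = 1.0 with all 8 arrays and 0.17 without control replicate 1).

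The rotor ring is made of c subunits, which 3 genes encode. Atp5g2 read 7.15 and 9.58 in the controls and 9.72 to 10.35 in the treated arrays, met the thresholds with all 3 treatments (1.67, 1.64 and 1.65), and met none without control replicate 1 (0.46, 0.42 and 0.44). Atp5g1 read 6.43 and 8.46 in the controls and 7.74 to 8.56 in the treated arrays, and Atp5g3 read 5.77 and 7.89 in the controls and 7.11 to 7.63 in the treated arrays. Neither met the thresholds with all 8 arrays. Atp5pb, the b subunit of the stator, was 7.15 and 8.36 in the controls, 7.38 and 6.90 with minoxidil, 6.51 and 6.20 under tieghemelin, while maslinic acid gave 7.49 and 6.96. With the tieghemelin arrays taken at the background median it was 1.69-fold lower than control, short of 1.7-fold. The values as read were past the thresholds with and without control replicate 1. The 1.69-fold is not a firm lower limit, as control replicate 1 (7.15) also lay below its own background median (7.75) and was taken as it read. Atp5o, the OSCP subunit, was below background on all arrays, and Atpif1, the ATP synthase inhibitor, which lies outside the member rule, read 8.72 to 10.12.

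Against the controls the members as a whole showed little shift with all 8 arrays. With minoxidil the median difference was 0.01 (0.06 over all probe sets; -0.01 with quantile normalization and -0.05 with a common median), with 1 member higher and 6 lower at the study's thresholds. Among all tested probe sets 6.98% were higher and 4.29% lower. With tieghemelin the median was -0.23 (0.05 over all, and 0.46 after a shift to a common antigenomic background, where all probe sets moved to 0.73), with 2 members higher and 13 lower (7.02% and 4.73% of all). With maslinic acid it was -0.12 (0.05 over all, 0.54 after the same shift), with 3 higher and 10 lower (6.39% and 4.45%). No member had an adjusted p under 0.05 in limma with all 8 arrays, nor did any other probe set (0.0% called in each comparison). At an unadjusted p of 0.05 or less there were 7 members with minoxidil (11.3% of all probe sets), 15 with tieghemelin (11.7%) and 13 with maslinic acid (10.8%). Arrays did not overlap with control for 5 members higher and 19 lower with minoxidil (20.6% and 15.6% of all probe sets). These counts were 5 and 24 for tieghemelin (22.2% and 18.4%) and 4 and 20 for maslinic acid (20.8% and 17.9%).

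Fewer members met the thresholds against control without minoxidil replicate 2 for minoxidil, and without either array of the treatment for tieghemelin and maslinic acid. Maslinic acid also had fewer without either tieghemelin array. The share of all probe sets in those fits was not worked out.

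The control array used set the direction of the members as a whole. Without control replicate 1, 67, 71 and 66 of the 81 members were lower than control replicate 2 with minoxidil, tieghemelin and maslinic acid, against 46.6%, 48.8% and 49.5% of all probe sets. The medians were -0.51, -0.72 and -0.65 (all probe sets 0.04, 0.02 and 0.01). Members at the study's thresholds then numbered 19 (all lower; 12.9% of all probe sets either way), 30 (29 lower; 13.7%) and 26 (25 lower; 12.8%), or 23.5%, 37.0% and 32.1% of the members. After the antigenomic shift the medians were -0.32, -0.10 and -0.06, with all probe sets at 0.24, 0.64 and 0.60. Without control replicate 2 instead, the medians were 0.51, 0.26 and 0.36. The share of all probe sets past the thresholds was not worked out for that fit, so member counts are left out. The values without control replicate 1 rest on 1 control array, and neither direction holds with the other control array. Control replicate 2 had the highest median not only of the muscle genes but also of 10 keratinocyte genes (10.01, against 8.36 to 9.62 on the other 7 arrays) and 7 dermal fibroblast genes (9.99, against 7.69 to 9.32). It was also highest for 6 sebocyte genes (8.30, against 7.47 to 8.27). It was not highest for 9 white adipocyte genes (7.71, against 8.30 on tieghemelin replicate 1) or 7 brown adipocyte genes (7.58, against 8.43 on control replicate 1). The median differences from control replicate 2 alone were, for minoxidil, tieghemelin and maslinic acid, -1.06, -1.46 and -1.19 for the keratinocyte genes and -0.92, -0.76 and -0.84 for the fibroblast genes. With each treatment 3 of the 10 keratinocyte genes were higher. The part of these cell types in the members' differences was not tested.

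**Figure D3:**
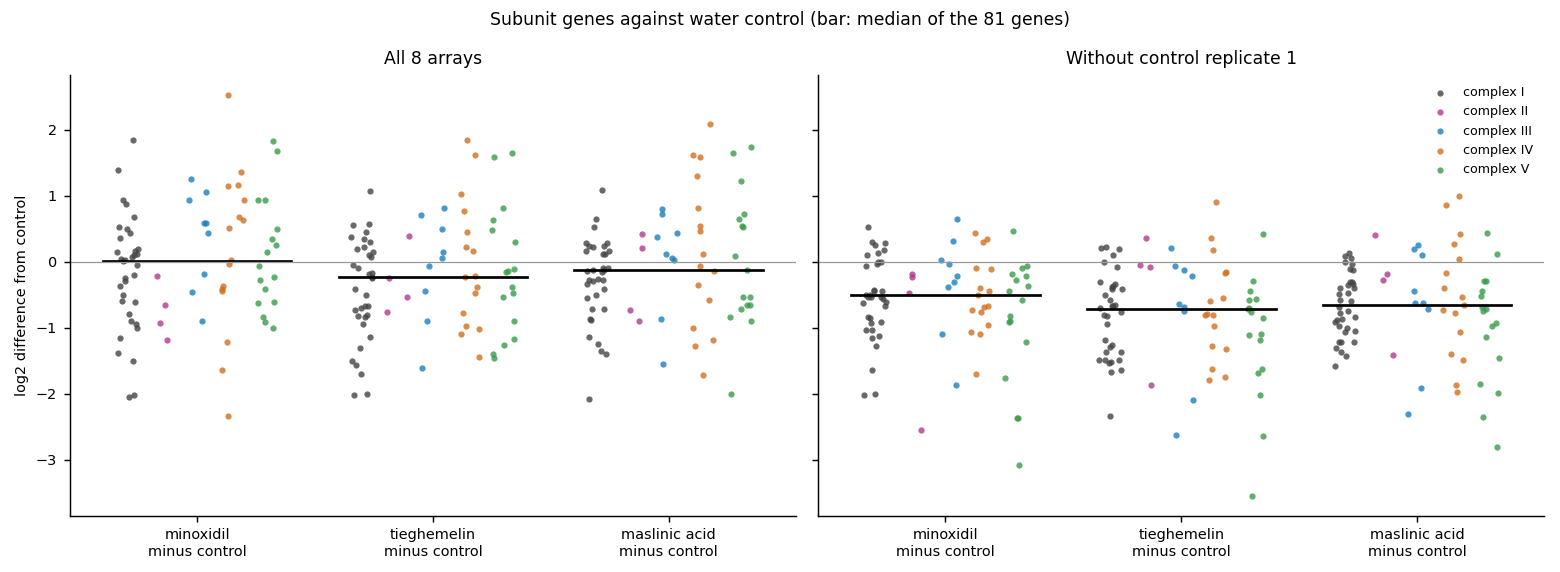
Log2 difference of each of the 81 subunit genes from control for the 3 treatments, with all 8 arrays and without control replicate 1, coloured by complex, black bars at medians. With all 8 arrays the medians are 0.01, -0.23 and -0.12, with tieghemelin and maslinic acid turning positive after an antigenomic shift, and without control replicate 1 they are -0.51, -0.72 and -0.65, with the complex II median for the last 2 turning positive after that shift.

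Between the treatments the control arrays play no part in the size of a difference, only in the spread used to test it. Minoxidil against tieghemelin gave 52 of 81 members higher and 29 lower (52.8% of all probe sets were higher), at a median of 0.28 (all probe sets 0.03), but 31 higher and 50 lower after the antigenomic shift (median -0.15, all -0.40). Groups did not overlap for 33 members that were higher with minoxidil (23.6% of all probe sets) and 12 that were lower (20.3%). Complex I (median 0.26), IV (0.30) and V (0.28) were higher with minoxidil and turned to -0.16, -0.13 and -0.15 after the shift, whereas complex II was lower either way. Only Ndufs4 met the study's thresholds with all 8 arrays (1.63, SE 0.61, 3.10-fold; background 3.3% in either direction), and 13 members met them without either control array (10.4% without control replicate 1). Of these 13, Cyc1, Ndufb10 and Atp5pb were below background on all minoxidil and tieghemelin arrays. No member met the thresholds without tieghemelin replicate 1.

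Minoxidil against maslinic acid gave 45 members higher and 36 lower (52.3% of all probe sets were higher; median 0.04, all probe sets 0.03; -0.36 and -0.37 after the antigenomic shift). The arrays did not overlap for 24 members higher with minoxidil (23.5% of all probe sets) and 15 lower (20.1%). Ndufb10, Ndufs5 and Atp5k met the study's thresholds (background 3.6%), Ndufb10 from below background on both sides, and 15 members met them without either control array (11.1% without control replicate 1), or 1 without maslinic acid replicate 1. Besides these 3, the genes among the 15 were Ndufc2, Ndufs1, Uqcrh, Cox6b1, Cox6c and Atp5j2, higher with minoxidil, and Ndufv1, Sdhb, Cox7a1, Cox7a2, Cox7b2 and Atp5h, lower.

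**Figure D4:**
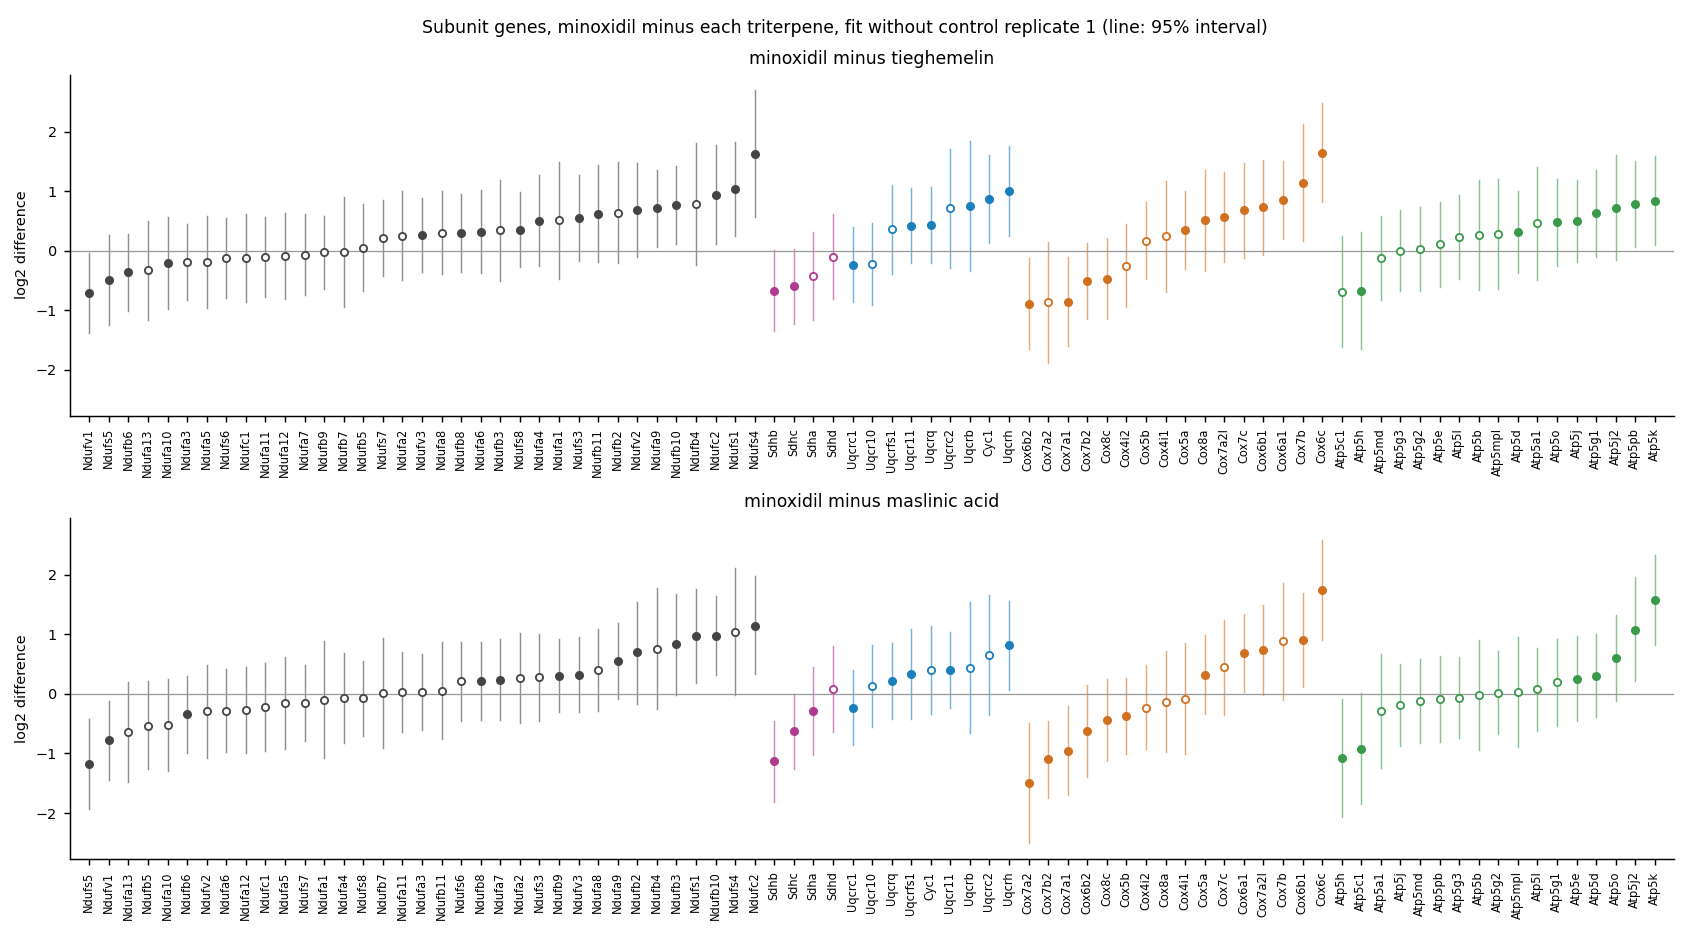
Log2 difference of minoxidil from tieghemelin and from maslinic acid for the 81 subunit genes with 95% intervals from the fit without control replicate 1; filled points are genes whose arrays do not overlap and open points those that do. Minoxidil is 1.64 and 1.74 above the others for Cox6c and 1.13 below maslinic acid for Sdhb, and a shift to a common antigenomic background would move every point down by 0.43 and 0.40.

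Tieghemelin and maslinic acid were compared at the same 1% dose and 20 days. The members gave 30 higher and 51 lower with tieghemelin (49.3% of all probe sets were lower; median -0.07, all probe sets 0.01), with 6 higher (15.7%) and 18 lower (14.9%) without overlap, and no member met the study's thresholds with all 8 arrays (0.306% of all probe sets). Without either control array Ndufv2 and Atp5pb met them (1.56% of all probe sets without control replicate 1). For Ndufv2 the difference was -0.98 with a 95% interval of -1.76 to -0.19, and for Atp5pb -0.87 with -1.59 to -0.15, each with tieghemelin below background. These calls used the values as read. With the tieghemelin arrays taken at the background median, Ndufv2 was at least 1.55-fold lower, short of 1.7-fold. For Atp5pb the value was 1.17-fold, not a firm lower limit, as maslinic acid replicate 2 (6.96) also lay below its background median (7.08). Atp5k was 0.74 higher with tieghemelin (-0.01 to 1.49). The difference was -0.07 for Ndufv1 (-0.74 to 0.60), 0.10 for Cox6c (-0.74 to 0.94), -0.46 for Sdhb (-1.14 to 0.22) and -0.74 for Atp5a1 (-1.70 to 0.21). All these intervals are from the fit without control replicate 1, in which the limma adjusted p was 1.0 for Ndufv2 and for Atp5pb.

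Genes that feed, build or regulate the chain were counted at the same thresholds with all 8 arrays, with the shares of all probe sets given above as background. For the fit without control replicate 1, which rests on 1 control array, the median difference of each list is given instead. Over all probe sets that median was 0.04, 0.02 and 0.01 with minoxidil, tieghemelin and maslinic acid. Of 12 citric acid cycle genes, only Idh3b, a subunit of isocitrate dehydrogenase, met them against control. Idh3b read 9.48 and 9.81 in the controls, 8.16 and 8.15 with minoxidil, 8.92 and 8.77 under tieghemelin, with maslinic acid at 8.78 and 8.94. Both controls lay above all treated arrays and minoxidil was lowest, as with Ndufv1, at -1.49 with minoxidil and -0.80 with tieghemelin (-1.65 and -0.96 without control replicate 1, both past the thresholds). In the fit without control replicate 1 the list medians were -0.74, -0.68 and -0.47 with minoxidil, tieghemelin and maslinic acid. Ogdh, of the oxoglutarate dehydrogenase complex, was not above background with minoxidil and was at least 1.66-fold lower there than with tieghemelin and at least 1.53-fold lower than with maslinic acid.

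Of 45 assembly factors, minoxidil had 2 higher than control (Nubpl, 1.26, and Ecsit, 0.89, both for complex I) and 2 lower (Ndufaf5, -1.41, and Cox14, which was below background throughout). Tieghemelin had 1 higher (Ttc19, a complex III factor, at least 1.73-fold, since it was not above background in the controls) and 3 lower (Cox10, Ndufaf7 and Sdhaf2). Maslinic acid had only Ndufaf5 (-1.46) and Cox10 (-1.04), both lower and neither past the thresholds without control replicate 1. Of 76 mitochondrial ribosomal proteins, 4 were higher and 1 lower with minoxidil, 4 higher and 4 lower with tieghemelin, and 2 higher and 3 lower with maslinic acid. The medians without control replicate 1 were 0.0, -0.01 and -0.13 for the assembly factors with the 3 treatments in that order. For the ribosomal proteins they were -0.03, -0.22 and -0.14. Mrps17, of the small subunit, was higher than control with tieghemelin (1.62) and maslinic acid (1.54), and was so without control replicate 1 (1.15 and 1.07), and was lower with minoxidil than with either (-1.45 and -1.37).

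Of 14 regulators of mitochondrial biogenesis, Tfb2m, a mitochondrial transcription factor, was higher with maslinic acid (1.03), a call lost without control replicate 1 (0.66). Pprc1, a coactivator of the PGC-1 family, was 2.72-fold lower with tieghemelin, with the tieghemelin arrays taken at the background median. The fold is not a firm lower limit, as control replicate 2 (6.84) also lay below its own background median (7.61) and was taken as it read. Pprc1 read 10.04 on control replicate 1 and 6.84 on control replicate 2, and was below background on all tieghemelin and maslinic acid arrays, so its difference rests on control replicate 1, without which it did not meet the thresholds. With minoxidil no regulator met the thresholds against control with all 8 arrays. The list medians without control replicate 1 were 0.01, -0.28 and -0.27 with minoxidil, tieghemelin and maslinic acid.

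Among 11 carriers and channels, Slc25a4, the adenine nucleotide carrier of heart and muscle, read 11.39 and 14.61 in the controls, 10.61 and 10.82 with minoxidil, 10.28 and 9.79 under tieghemelin, while maslinic acid gave 12.27 and 9.76. It was lower with tieghemelin than control by -2.97, and with Vdac3 (-1.45), an outer-membrane channel, met the thresholds. With control replicate 1 left out these were -4.58 and -1.70. The list medians were then -0.73, -1.29 and -0.95 with minoxidil, tieghemelin and maslinic acid. Cycs, cytochrome c, read 9.27 and 13.63 in the controls and 11.68 to 13.11 in the treated arrays, and its control arrays enclosed all treated ones. Of 16 glycolytic genes, 2 were lower at the thresholds with each treatment, namely Aldoa, the muscle form of aldolase (-3.14, -4.58 and -3.67), and Pgam2, the muscle form of phosphoglycerate mutase (-1.18, -1.46 and -1.10). Those higher were Pfkl with minoxidil, Hk1 with tieghemelin, and Hk1 and Hk2 with maslinic acid, of which Hk2 did not meet the thresholds without control replicate 1. The medians of the glycolytic genes were -0.87, -1.42 and -0.91 without control replicate 1. Aldoa then stood at -4.72, -6.16 and -5.25 and Pgam2 at -1.38, -1.66 and -1.30. Of the 20 skeletal muscle genes, 10, 16 and 11 were lower than control at the thresholds with the 3 treatments. Their medians without control replicate 1 were -2.9, -4.04 and -2.99. The part of muscle RNA in these values was not tested.

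**Figure D5:**
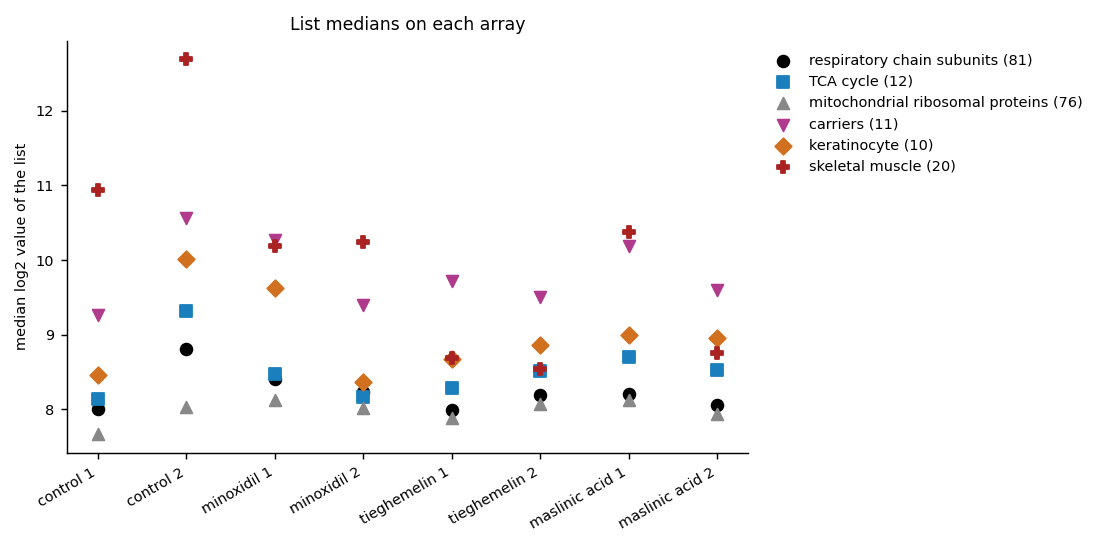
Median log2 signal of 6 gene lists on each of the 8 arrays, as deposited. The skeletal muscle median runs from 12.69 on control replicate 2 to 8.54 on tieghemelin replicate 2, while the respiratory chain members lie between 7.99 and 8.81.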

How the data were processed

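RNA from skin was hybridised to Clariom S Mouse arrays. The authors deposited log2 values per probe set, a scale taken from their range, which reaches 19.93. Per the series' design text, scans were normalised in Transcriptome Analysis Console 4.0.1, while Affymetrix Expression Console and RMA are listed per the submitters' processing notes. Such normalization removes differences in total signal between arrays. A genome build was not given in the sources used here. No further scaling was applied. Control probe sets (6640) were left out and 22206 were tested. Genes were named from the platform annotation, and all 81 members matched RefSeq by gene ID.

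All 8 arrays entered 1 linear model with a group term, fitted with limma 3.58.1 in R 4.3.3 with eBayes (4 residual degrees of freedom, 3 without an array), with Benjamini-Hochberg adjustment over all probe sets, for 6 pairwise comparisons. The study's thresholds, per the design text, are 1.7-fold and p at most 0.05. A gene with no array of a group above the median of the antigenomic probe sets gets a lower limit of its fold, its dim arrays being set to that median where they lie under it. The other group is taken as it read, and where 1 of its arrays also lies under background the limit is not firm. Calls at the thresholds use all values as read. Named were subunits with known catalytic or isoform roles, the largest differences without overlap, genes past the thresholds, the largest of the other lists, and genes below background on a group. Members and lists were chosen with earlier results of these data known. Alternatives were quantile normalization, a common median, a filter on dim probe sets, a replicate block and leaving out each array. An antigenomic shift and a crossed block were chosen after seeing the data. Scripts were tested on simulated data.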

Additional observations from a re-analysis of the deposited data

How the results depend on the processing

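The number of arrays limits every comparison, and a group that loses an array keeps 1, which is then assumed to vary like the others. Leaving out each array in turn gave median member differences of -0.51 to 0.51 for minoxidil against control, -0.72 to 0.26 for tieghemelin, -0.65 to 0.36 for maslinic acid, 0.16 to 0.31 for minoxidil against tieghemelin, -0.05 to 0.22 for minoxidil against maslinic acid and -0.23 to -0.01 for tieghemelin against maslinic acid. Members at the study's thresholds were 3 to 43, 3 to 41, 5 to 42, 0 to 13, 1 to 15 and 0 to 2 in the same order, and members at adjusted p 0 to 36, 0 to 35 and 0 to 36 against control and 0 to 0 between treatments. The highest medians against control came without control replicate 2. The lowest threshold counts came without minoxidil replicate 2 (3), tieghemelin replicate 1 (3) and maslinic acid replicate 2 (5).

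The median reversed for minoxidil against control with quantile normalization (-0.01) and a common median (-0.05). It reversed with the filter, which kept 47 members, for tieghemelin (0.10) and maslinic acid (0.16) against control. It reversed with the antigenomic shift for tieghemelin (0.46) and maslinic acid (0.54) against control and for minoxidil against tieghemelin (-0.15) and maslinic acid (-0.36). Threshold counts moved with the filter to 3, 5 and 4 against control and 0 for minoxidil against tieghemelin. With the antigenomic shift they moved to 9 for tieghemelin against control (7 higher, 2 lower), 4 for minoxidil against tieghemelin (all lower) and 7 for minoxidil against maslinic acid, and maslinic acid against control gave 9 higher and 2 lower. Minoxidil against maslinic acid gave 5 with quantile normalization and 5 with a common median. The shift and the filter act by construction, on arrays with unequal background and on fewer genes. The cause was not tested for the others. Shares of all probe sets at the thresholds were not worked out for the filter, quantile normalization, the shifts or the blocks.

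Same-numbered arrays correlated in their deviations at -0.17 to 0.09, so the replicate numbers share only a number. With the replicate block the threshold counts were 9, 12, 11, 1, 3 and 0, against 7, 15, 13, 1, 3 and 0 without it. The block left the member medians unchanged, and no member passed at adjusted p. A crossed block, chosen after seeing the data, gave 1 member for tieghemelin against maslinic acid.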
